A study of Mus musculus with 10 samples.

Results

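The genes described here are 10 components and targets of bone morphogenetic protein (BMP) signalling: the ligand genes Bmp4 and Bmp7, the receptor genes Bmpr1a and Bmpr2, the inhibitor genes Smad6 and Bambi, and the inhibitor-of-DNA-binding (ID) genes Id1, Id2, Id3 and Id4. They were taken by gene symbol from a table of 53167 genes, and all 10 symbols were found. After a filter on low counts 14415 genes were tested, 9 of the 10 among them; Bmp4 was too rare. The counts come from wild-type primary epithelial cells that were isolated from mouse mammary gland and grown in DMEM with 10% fetal bovine serum. The BGN group of 5 libraries received biglycan, a small leucine-rich proteoglycan of the matrix, at 100 ng/mL, and the Control group of 5 libraries received none. Serum was in the medium of both groups, and the time of exposure and the origin of the replicates (separate animals, cultures or neither) are not stated, so that p-values measure the spread between these libraries, which may be technical.

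BMP ligands are secreted dimers that bring type I and type II receptor kinases together at the cell surface. The type I receptor then phosphorylates SMAD1, SMAD5 or SMAD9, which enter the nucleus with SMAD4 and induce target genes, with the ID genes and Smad6 among the most widely used readouts. ID proteins bind E proteins and other helix-loop-helix factors and keep them off DNA, and Id2 is required in the mammary gland for the growth of the milk-producing alveoli in pregnancy. Biglycan has been reported to bind BMP ligands and to modulate their signalling in bone cells, which makes these readouts a direct question for this design.

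Library totals lay between 18292624 and 21820560 counts. Expressed as CPM, the count of a gene relative to the total of its library, the cultures held transcripts of both mammary layers: 7 basal markers summed to 5421 to 5696 CPM in BGN and 5360 to 6624 CPM in Control, and 8 luminal markers to 4677 to 4972 CPM in BGN and 4933 to 5233 CPM in Control. The luminal sums thus lay lower in BGN with a small overlap, and their part in the values below was not tested. Most of the basal sum came from Krt14 at 3633 CPM and Krt5 at 1512 CPM on average. Acta2 was at 27.6 CPM and Myh11, the lowest basal marker, at 0.201 CPM. Luminal markers ran from Epcam at 1127 CPM down to Esr1 at 16.5 CPM. Endothelial cells, which express Smad6, Id1 and Id3 strongly, left little trace: 10 markers summed to 6.61 to 7.501 CPM in BGN and 7.46 to 7.93 CPM in Control, of which Pecam1 gave 5.25 CPM on average, Cdh5 and Kdr gave 0.0257 and 0.0508 CPM, and Cldn5 had no count. The sums of 9 fibroblast markers were 46.3 to 52.2 and 40.3 to 59.3 CPM, mostly Pdgfra at 38.7 CPM, with Dpt at 0, and those of 6 pericyte markers 142 to 164 and 140 to 173 CPM, nearly all Notch3 at 150 CPM. Of 7 myeloid markers Cd14 alone gave 402 CPM, the other 6 together 2.17 to 4.25 CPM per library, and Adgre1 had no count. Sums for 6 adipocyte markers, led by Fabp4 at 0.662 CPM, did not pass 1.41 CPM, and of 7 lymphocyte markers only Cd79a was detected. A pair of libraries stood apart in glycolysis or mitochondrial counts. BGN replicate 5 had the lowest sum over 5 glycolysis genes (5178 CPM, against 6263 to 7716 CPM elsewhere), and Control replicate 5 had 1.16% of its counts on mitochondrial genes, against 1.80% to 2.27% elsewhere. Values without one or both of these libraries are given beside several results and with the limits at the end.

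The chosen genes spanned a wide range of levels. Dividing CPM (here and below scaled with TMM factors, which correct for library composition) by the length of each gene's exons in kilobases allows levels to be compared between genes. Id2 stood highest, at 145 ± 7.31 CPM per kb (SD, n = 10 libraries), followed by Bmpr1a at 73.1 ± 3.36 and Id1 at 64.0 ± 7.90 CPM per kb. Id4 and Id3 came next, at 33.6 ± 0.998 and 28.1 ± 5.48 CPM per kb, and then Bmpr2 at 16.2 ± 1.51 CPM per kb. Smad6, Bmp7 and Bambi were lower still, at 3.01 ± 0.386, 2.47 ± 0.294 and 2.30 ± 0.214 CPM per kb, and Bmp4 was at 0.0276 ± 0.0325 CPM per kb. The ranges over libraries overlapped between Bmpr1a and Id1, between Id4 and Id3, between Smad6 and Bmp7 and between Bmp7 and Bambi, so these neighbours in the order were not separated; Id3 passed Id4 when the longest transcript served as the length. Within the ID family, Id2 made up 53.6 ± 2.93% of the summed level per kb of exons, Id1 23.6 ± 2.23%, Id4 12.4 ± 0.691% and Id3 10.3 ± 1.49%. These shares depend on the length chosen, which the SDs over libraries do not cover. With the longest transcript Id2 was at 179 and Id3 at 39.4 CPM per kb.

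**Figure D1:**
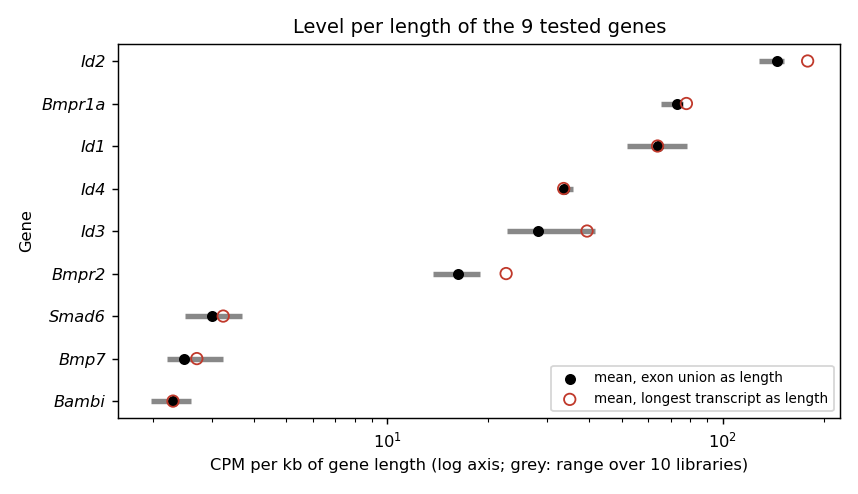
Level of the 9 tested genes in CPM per kb of gene length, on a log axis. Black points are means over 10 libraries with the exon union as the length, grey bars the range over libraries, and red circles the means with the longest transcript as the length; Id2 is highest at 145 CPM per kb and Bambi lowest at 2.30 CPM per kb.

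Upstream sequences are shown for the target genes with the steadiest and one of the less steady levels over the 10 libraries, Id4 and Smad6, and for the almost silent ligand gene Bmp4. From the RefSeq promoter table, in build GRCm38.p6, windows of 7 of the 10 genes were used, matched by symbol. Each line gives the 250 bases before the annotated start, 5′ to 3′ along the gene. Capitals mark GGCGCC, the GC-rich element of BMP-responsive enhancers, and GTCT or its complement AGAC, the core that SMAD proteins bind.
Id4, chr13:48260866-48261115, plus strand: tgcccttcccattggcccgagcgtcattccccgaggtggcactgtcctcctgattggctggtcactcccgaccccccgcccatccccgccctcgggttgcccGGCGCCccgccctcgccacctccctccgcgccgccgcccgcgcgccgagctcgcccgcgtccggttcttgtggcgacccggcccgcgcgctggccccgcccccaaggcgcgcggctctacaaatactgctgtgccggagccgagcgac
Smad6, chr9:64022060-64022309, minus strand: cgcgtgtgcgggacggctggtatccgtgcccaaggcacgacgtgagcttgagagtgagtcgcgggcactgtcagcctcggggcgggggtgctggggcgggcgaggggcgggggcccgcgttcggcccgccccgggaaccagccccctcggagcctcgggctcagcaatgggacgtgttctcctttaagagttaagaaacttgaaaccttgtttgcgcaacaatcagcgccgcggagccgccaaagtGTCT
Bmp4, chr14:46390670-46390919, minus strand: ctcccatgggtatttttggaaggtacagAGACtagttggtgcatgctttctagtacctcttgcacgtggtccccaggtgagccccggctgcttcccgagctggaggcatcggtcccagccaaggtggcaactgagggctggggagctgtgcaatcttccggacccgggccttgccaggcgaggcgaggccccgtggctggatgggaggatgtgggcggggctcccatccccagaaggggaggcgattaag

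In these windows Id4 had 1 match to GGCGCC, while Smad6 and Bmp4 each had 1 match to GTCT on either strand. Over 32851 RefSeq promoter windows of the same length, 9.59% held GGCGCC and 82.9% held GTCT on either strand, so the latter match is common. GGCGCC was also found once each in the windows of Id2, Bmpr1a and Bmpr2, and not in that of Id3, which held 2 matches to GTCT. These last 4 windows overlap annotated exons and are described by their matches only. GC content was 75.6% for Id4, 66.8% for Smad6 and 63.2% for Bmp4, against a median of 52.4%. For Bmpr1a, Bmpr2, Id2 and Id3 it was 78.8%, 64%, 62.8% and 62.8%. The share of 9.59% was not matched for GC content, so it cannot show whether GGCGCC is frequent in these windows. A match is a description of the letters and not a sign that a factor was bound.

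None of the 9 tested genes passed the comparison of BGN with Control (edgeR quasi-likelihood test, adjusted p under 0.05 as the threshold), with adjusted p-values from 0.945 to 0.996. The background was the same: 0 of 14415 genes, or 0%, were called. At an unadjusted p under 0.05 there was 1 of the 9, Bmpr2, against 694 of all tested genes, or 4.81%, and by DESeq2 and limma-voom, which also called 0 genes, the numbers over all genes were 662 and 801. The CPM of BGN and Control overlapped for all 10 genes, Bmp4 included, where 0.728% of tested genes were free of overlap. Estimates were above 0 (higher in BGN) for 7 and below 0 for 2 of the 9, and their median log2 fold change was 0.043, beside -0.0040 over all genes. For 7 of the 9 the 95% interval excluded a rise or a fall of 1.25-fold, the exceptions being Id3 and Bmp7. For all 9 it excluded 1.5-fold. Over all genes, 69.5% of intervals lay within 1.25-fold in either direction and 12237 of 14415 within 1.5-fold, so such intervals were common.

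**Figure D2:**
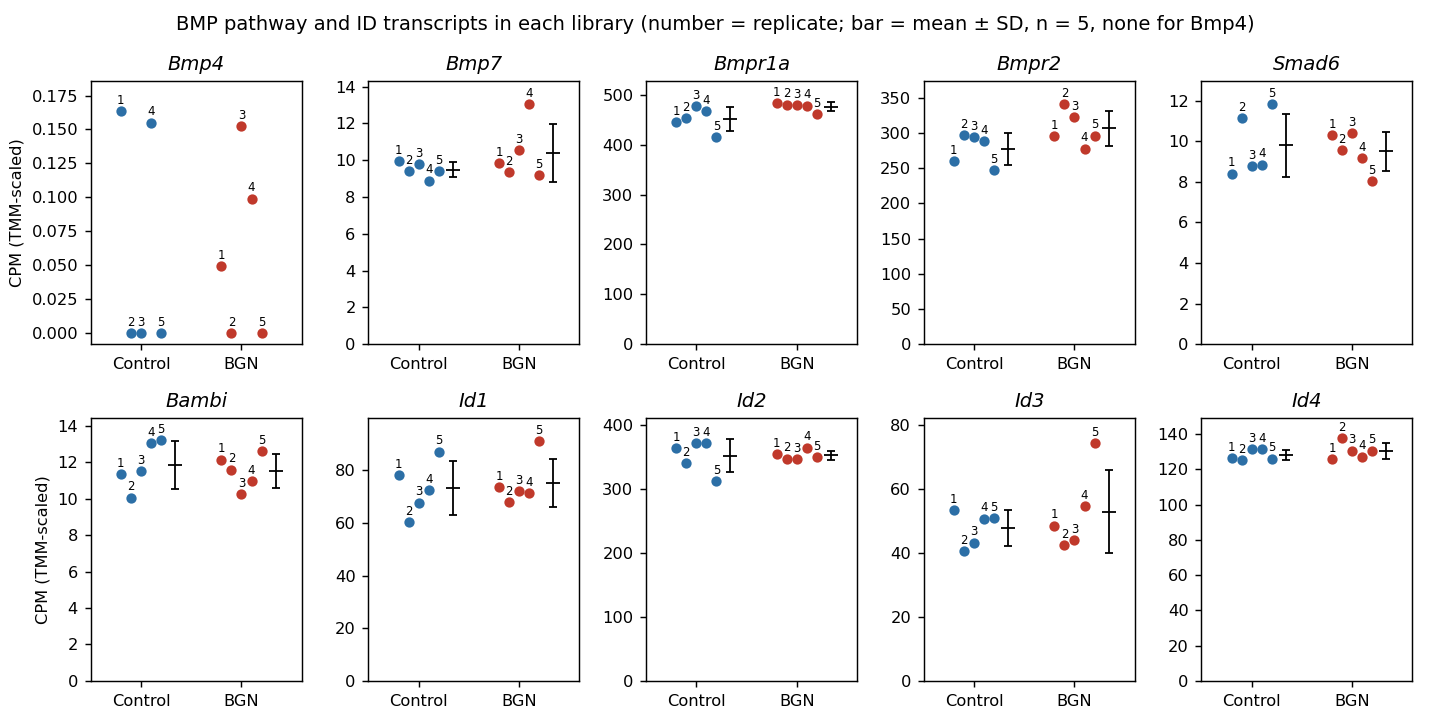
CPM of each of the 10 genes in every library, Control in blue and BGN in red, with the replicate number above each point and the mean ± SD beside it (n = 5 per group; not drawn for Bmp4). The groups overlap in every panel, and BGN replicate 5 lies highest for Id1 and Id3, at 91.0 and 74.6 CPM.

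The ligand genes were low. Bmp4, whose product signals through BMPR1A and BMPR1B, had 12 counts over all libraries, 6 in each group and at most 3 in any library. It was at 0 in 5 libraries, where 3 counts, the limit a count of 0 allows, would be 0.137 to 0.164 CPM, so no fold is given. Bmp7, which encodes a ligand that also uses the receptor ACVR1, was at 9.85, 9.35, 10.6, 13.0 and 9.20 CPM in BGN replicates 1 to 5 and at 9.93, 9.40, 9.78, 8.89 and 9.39 CPM in Control replicates 1 to 5. A single BGN library, replicate 4, stood above the rest, and the other 9 libraries lay between 8.89 and 10.6 CPM. The log2 fold change of Bmp7 was 0.13 ± 0.099 (SE; 95% interval 0.952-fold to 1.26-fold), and 0.041 without BGN replicate 4.

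Both receptor genes were abundant. Bmpr1a, encoding a type I receptor for BMP2 and BMP4, was at 483, 481, 479, 479 and 462 CPM in BGN and at 446, 454, 478, 468 and 415 CPM in Control. The BGN libraries apart from replicate 5 lay at or just above the highest Control library, and Control replicate 5 was lowest. Its log2 fold change was 0.076 ± 0.041 (interval 0.994-fold to 1.12-fold), and 0.047 without Control replicate 5. Bmpr2, which encodes the type II receptor that activates it, was at 295, 341, 322, 278 and 296 CPM in BGN and at 260, 297, 294, 288 and 247 CPM in Control. BGN replicates 2 and 3 were highest and Control replicates 1 and 5 lowest, while the other 6 libraries were mixed. The log2 fold change of Bmpr2 was 0.14 ± 0.059 (interval 1.01-fold to 1.205-fold), with an unadjusted p of 0.027 and an adjusted p of 0.945 by edgeR; over all alternatives the estimate stayed between 0.10 and 0.18, with edgeR adjusted p = 0.414 as the smallest, when no filter on low counts was used. Control replicates 1 and 5 also had the largest shares of counts on ribosomal protein genes, 4.54% and 4.46% against 3.86% to 4.02% in the other 8 libraries, and the part of this in the Bmpr2 difference was not tested.

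The inhibitor genes did not separate the groups. SMAD6 is an inhibitory SMAD that BMP signalling itself induces, and its gene was at 10.3, 9.57, 10.4, 9.17 and 8.01 CPM in BGN and at 8.41, 11.1, 8.77, 8.84 and 11.8 CPM in Control. The lowest and the highest library were BGN replicate 5 and Control replicate 5. The log2 fold change of Smad6 was -0.048 ± 0.11 (interval 0.828-fold to 1.13-fold) and turned to 0.083 without both of them. BAMBI is a membrane protein that resembles a type I receptor but lacks the kinase, and blocks signalling by BMP, activin and transforming growth factor-beta receptors. Bambi was at 12.1, 11.6, 10.3, 10.95 and 12.6 CPM in BGN and at 11.4, 10.1, 11.5, 13.0 and 13.2 CPM in Control, interleaved throughout. Its log2 fold change was -0.037 ± 0.092 (interval 0.855-fold to 1.11-fold), and 0.0018, 0.00082 and 0.0068 without BGN replicate 3, Control replicate 4 or Control replicate 5.

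All 4 ID genes had estimates above 0, none of them called, and that of Id2 turned to -0.0012 when library totals alone served for scaling. Id1, a direct SMAD target in many cell types, was at 73.7, 68.0, 72.2, 71.3 and 91.0 CPM in BGN and at 78.1, 60.2, 67.7, 72.6 and 87.1 CPM in Control. The replicate 5 library was the highest of each group. Its log2 fold change was 0.043 ± 0.11 (interval 0.873-fold to 1.22-fold), and -0.034 without BGN replicate 5 or -0.020 without Control replicate 2. Id3, close in sequence and function to Id1, was at 48.6, 42.6, 44.0, 54.9 and 74.6 CPM in BGN and at 53.5, 40.6, 43.3, 50.8 and 51.0 CPM in Control. Without BGN replicate 5 the groups covered nearly the same span. The log2 fold change of Id3, 0.15 ± 0.17, was the largest among the 9 genes with the widest interval (0.853-fold to 1.44-fold), and was -0.0061 without that library or 0.018 without both replicate 5 libraries.

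Id2 and Id4 were steadier. Id2 was at 355, 348, 347, 365 and 350.2 CPM in BGN and at 365, 340.5, 372, 373 and 313 CPM in Control; the Control libraries enclosed all of BGN, with Control replicate 5 lowest. Its log2 fold change was 0.0027 ± 0.045 (interval 0.939-fold to 1.07-fold). Id4, which in the mammary gland is expressed in basal cells, was at 126, 138, 131, 127 and 131 CPM in BGN and at 126, 125, 131, 131 and 126 CPM in Control, so that only BGN replicate 2 lay outside the span of the Control group. The log2 fold change of Id4 was 0.025 ± 0.039 (interval 0.961-fold to 1.076-fold), 0.0052 without BGN replicate 2 and 0.038 without BGN replicate 1. In bulk RNA a change in the number of cells of a type and a change in RNA per cell cannot be told apart, which holds for each of these values.

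**Figure D3:**
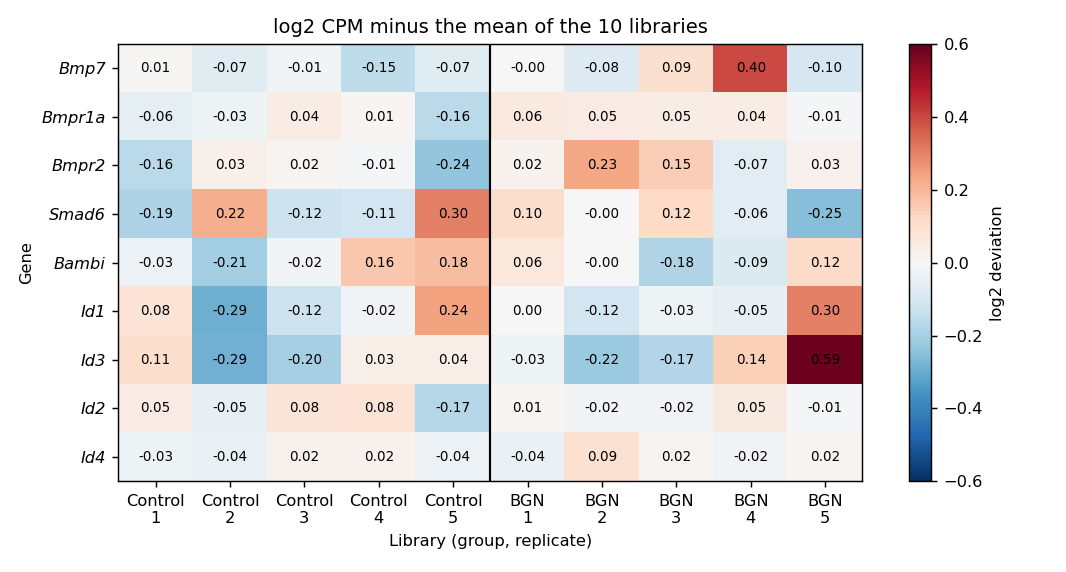
Deviation of log2 CPM from the mean of the 10 libraries for each of the 9 tested genes, Control left and BGN right of the line. Id3 in BGN replicate 5 is the highest value, at 0.59, and Id4 stays between -0.04 and 0.09.

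The genes varied among replicates to different degrees. The SD within groups on the log2 scale was 0.26 for Id3 and 0.18 for Id1, larger than in 99.6% and 97.8% of the 500 tested genes closest in mean level. Both SDs moved with the replicate 5 libraries: without BGN replicate 5 that of Id3 was 0.17, above 99.2%, and without both replicate 5 libraries those of Id3 and Id1 were 0.18 and 0.12, above 99.6% and 92.6%. Bmpr2 followed with 0.12, above 93.8% of its neighbours in level. By contrast, Id4 had an SD of 0.043, above 12.2%. It became 0.045, above 26.2%, without Control replicate 5 and 0.048, above 33.6%, without both replicate 5 libraries. Bmpr1a had an SD of 0.058, above 34.2%, which became 0.035, above 12.6%, without Control replicate 5. Smad6 (0.19, above 76.8%), Id2 (0.079, 68.6%), Bambi (0.14, 52.2%) and Bmp7 (0.15, 49.0%) fell between, with Id2 at 0.046, above 32.4%, without Control replicate 5. As a coefficient of variation the span ran from 2.97% for Id4 to 18.2% for Id3. These ranks describe the 10 libraries and carry no test, and the values without the replicate 5 libraries were added after seeing the data.

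Among the 6 BMP target genes Id1, Id2, Id3, Id4, Smad6 and Bambi, 1 of 15 pairs was correlated across the 10 libraries after adjustment. Id3 was correlated with Id1, with a Pearson r of 0.82 (permutation p = 0.0025, adjusted p = 0.037 over 15 pairs) and a Spearman rho of 0.78 (permutation p = 0.0103, adjusted p = 0.154). Without the 2 libraries farthest from the median of Id1, which were BGN replicate 5 and Control replicate 5, r was 0.77 over 8 libraries (exact permutation p = 0.0155, adjusted p = 0.233), so the adjusted threshold was missed while r changed little. Smad6 ran opposite to Id2, with r = -0.76 (permutation p = 0.0070, adjusted p = 0.053) and rho = -0.71 (permutation p = 0.0256, adjusted p = 0.192); without Control replicates 4 and 5, the farthest for Id2, r was -0.59 (exact permutation p = 0.125, adjusted p = 0.449), and without both replicate 5 libraries it was -0.87 (exact permutation p = 0.0078, adjusted p = 0.116). Id1 and Bambi had r = 0.69 (permutation p = 0.0255, adjusted p = 0.128) and rho = 0.65 (permutation p = 0.0507, adjusted p = 0.253), and r = 0.48 without the 2 farthest (exact permutation p = 0.224, adjusted p = 0.449). The labels name no batch, and correlations within a group of 5 libraries were not computed. With group means removed the 3 values of r were 0.82, -0.76 and 0.72. Id2 with Smad6 then fell under the threshold (adjusted p = 0.047, permutation test). That permutation moved values between the groups and took no account of the means removed. Its p-values may thus be too small, and Id2 with Smad6 is not taken as correlated.

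**Figure D4:**
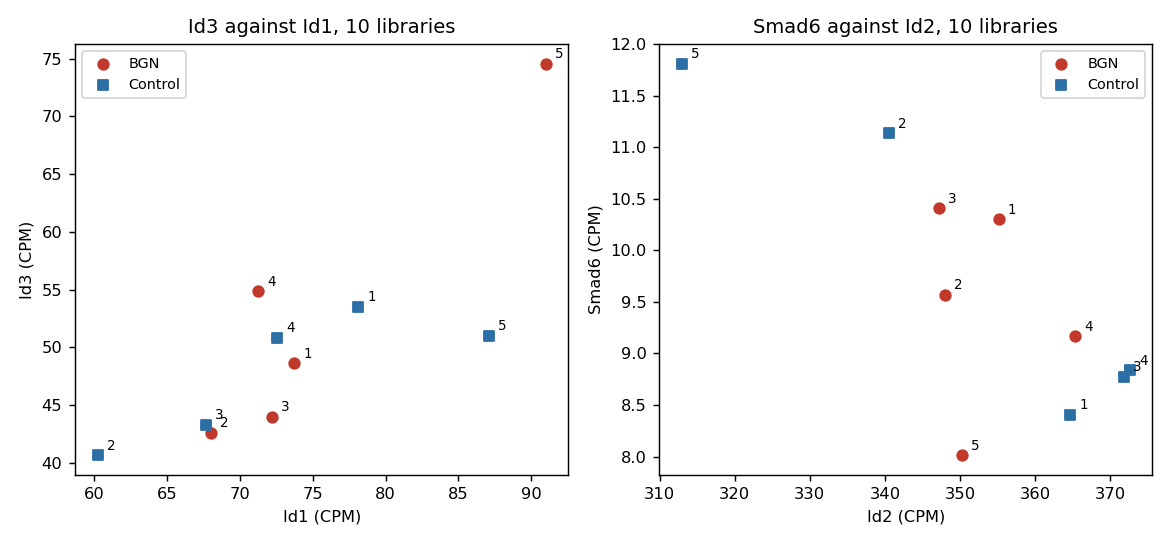
CPM of Id3 against Id1 (left) and of Smad6 against Id2 (right), 1 point per library with its replicate number, BGN as red circles and Control as blue squares. BGN replicate 5 is at the top right of the left panel, at 91.0 and 74.6 CPM, and Control replicate 5 at the top left of the right panel, at 313 and 11.8 CPM.

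Many genes were closer to Id1 than Id3 or Bambi was. The ranks are by signed r, and none was computed for Id2 with Smad6. With group means removed, and among 11964 other genes whose mean count reached 50, Id3 came at rank 225 in closeness to Id1, Bambi at rank 659 and Smad6 at rank 7977. The 5 genes closest to Id1 were Ndufs5 (r = 0.97), a subunit gene of respiratory complex I, Hspe1 (0.97), which encodes the mitochondrial co-chaperonin, Brd2 (0.96), a bromodomain gene, Cndp2 (0.96), a dipeptidase gene, and P3h1 (0.96), a collagen prolyl hydroxylase gene. Without both replicate 5 libraries, and with group means kept, r of Id1 to these genes was 0.50, 0.53, 0.86, 0.86 and 0.87. The measure thus differs as well as the libraries. All points share the same 10 libraries, their depths and their scaling, and the values are given as a description.

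Of the wider pathway, 64 genes were listed by role and 45 tested, 36 of them outside the 10 genes above. None passed in either direction, with 32 estimates above and 13 below 0 and a median log2 fold change of 0.043; over all tested genes 6921 of 14415 estimates, or 48.0%, were above 0. At an unadjusted p under 0.05 there were 5 of the 45, namely Bmpr2, Acvr2a, Bmper, Runx2 and Tcf4, against 4.81% of all genes. The groups were free of overlap for 1 of them, Bmper, against 0.728% of all genes. Bmper met the filter on low counts through its BGN libraries alone, so its place in both counts is no support for a change. The split of estimates above and below 0 was 31 and 14 with library totals alone. The genes named next are the 2 of highest CPM in each role besides the 10.

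Among 14 ligand genes 4 were tested, 3 above and 1 below 0. Bmp2 averaged 20.01 ± 1.88 CPM with BGN and 18.3 ± 1.70 CPM without (log2 fold change 0.13, and 0.077 without Control replicate 2 or 0.080 without BGN replicate 5). Gdf5, a ligand of joint development, averaged 8.33 ± 1.43 and 8.89 ± 1.22 CPM (-0.089, and from -0.16 without BGN replicate 5 to -0.012 without Control replicate 5). Type I receptors split evenly, 2 above and 2 below 0, with Acvr1 at 95.02 ± 1.13 and 90.4 ± 4.55 CPM (0.072) and Acvrl1, best known from endothelium, at 15.8 ± 1.34 and 17.3 ± 1.79 CPM (-0.13). All 3 type II receptor genes had estimates above 0 under each of the 4 scalings, and none was called. Acvr2a was at 60.8 ± 3.94 and 56.4 ± 2.75 CPM (0.11, unadjusted p = 0.048, edgeR adjusted p = 0.945), and Acvr2b at 3.799 ± 0.616 and 3.03 ± 0.794 CPM (0.32, interval 0.970-fold to 1.603-fold). Of 4 co-receptor genes 3 were tested, 2 above and 1 below 0; Rgma and Rgmb, which encode repulsive guidance molecules, had log2 fold changes of 0.026 and 0.089.

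**Figure D5:**
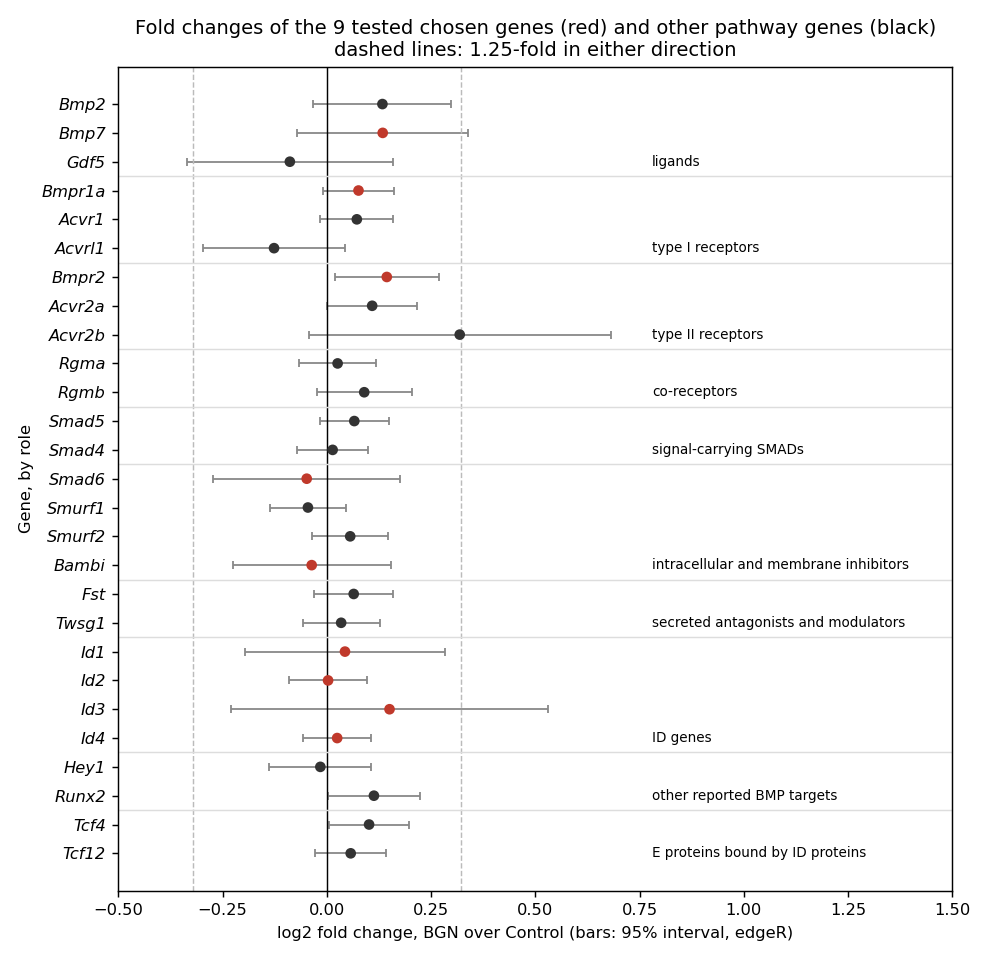
log2 fold change of BGN over Control with its 95% interval for the 9 tested genes (red) and the 2 most abundant other genes of each role (black), ordered by role; dashed lines mark 1.25-fold. The widest interval among the red points is that of Id3, and the interval of Bmpr2 lies above 0 before adjustment, from 1.01-fold to 1.205-fold.

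The signal-carrying SMAD genes, 4 of 4 tested, all had estimates above 0 under each of the 4 scalings, and none was called. Smad5 averaged 183 ± 3.88 CPM with BGN and 175 ± 7.57 CPM without (log2 fold change 0.066), and Smad4, the shared partner, at 127 ± 3.79 and 126 ± 5.19 CPM (0.014, and -0.0027 by limma-voom or -0.0011 without Control replicate 5). Of 5 inhibitors inside the cell or in its membrane, 2 lay above and 3 below 0; the ubiquitin ligase genes Smurf1 and Smurf2 had log2 fold changes of -0.046 and 0.056. Secreted antagonists and modulators gave 10 tested of 16, with 7 above and 3 below 0. Twsg1, a modulator of ligand availability, was at 256 ± 12.6 and 250 ± 14.0 CPM (0.034, and -0.010 without both replicate 5 libraries), and Fst, which encodes the activin antagonist follistatin, at 81.9 ± 3.88 and 78.4 ± 3.47 CPM (0.064).

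Bmper, whose product binds BMPs outside the cell, was picked after its values were seen. Its counts were 13, 24, 13, 18 and 17 in BGN and 8, 10, 9, 7 and 3 in Control. Every BGN library lay above every Control library at these low counts, at 0.856 ± 0.274 against 0.382 ± 0.132 CPM. The log2 fold change was 1.14 (interval 1.37-fold to 3.54-fold), the unadjusted p 0.0023 and the adjusted p 0.945 by edgeR, so it did not reach the threshold. Bmper was tested only because its BGN libraries met the filter on low counts, which no Control library did. The filter thus favoured genes with this pattern, and the lack of overlap and the estimate are no support for a change.

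Further reported BMP targets numbered 7, of which 5 were tested, 3 above and 2 below 0. Hey1, also a target of Notch, averaged 159 ± 14.9 CPM with BGN and 161 ± 9.07 CPM without (log2 fold change -0.016, and 0.044 without BGN replicate 5). Runx2, a transcription factor gene known from bone, was at 42.6 ± 2.37 and 39.4 ± 1.67 CPM (0.11, unadjusted p = 0.045, edgeR adjusted p = 0.945). The E protein genes, whose products ID proteins bind, were 3 of 3 tested with 2 above and 1 below 0; Tcf12 was at 234 ± 5.602 and 225 ± 12.1 CPM (0.057) and Tcf4 at 133 ± 6.04 and 124 ± 7.64 CPM (0.10, unadjusted p = 0.040, edgeR adjusted p = 0.945).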

How the data were processed

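RNA was sequenced from 5 BGN and 5 Control samples, with groups and replicate numbers from the sample titles. Per the labels' protocols, libraries were made from poly-A selected RNA. The values the authors deposited are unnormalized whole-number counts, 1 row per gene symbol. Tools listed by the submitters' processing notes are cutadapt 1.9.1, FastQC, HTSeq, HISAT2 2.2.1 and DESeq2, with GRCm39 as the build. No annotation release and no strand setting is given in the sources used here, so reads of antisense genes (annotated for Bmpr1a, Id4 and Bmp4, at 23 counts or fewer each over all libraries) may not be separable.

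BGN was compared with Control by the robust quasi-likelihood test of edgeR 4.0.16 under R 4.3.3, after filterByExpr and TMM scaling, with Benjamini-Hochberg adjustment over 14415 genes. SEs were derived from the F statistics. Marker sums used library totals alone. log2 CPM used a prior count of 2. Correlations used 100000 permutations, or all of them for 8 libraries. Gene lengths are from GENCODE M21 (GRCm38), matched by symbol. The steps were tested on simulated data. Alternatives were other scalings and filters, DESeq2 1.42.0, limma-voom (limma 3.58.1), the replicate number as a block and leaving out libraries. The members, gene lists and naming rule (all 10 genes, the 2 most abundant others per role, the 5 genes closest to Id1, the leading marker of each cell type) were chosen with earlier results of these data known.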

Additional observations from a re-analysis of the deposited data

Results flagged for a closer look

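In each group of 5 libraries, the highest and the lowest CPM of 29 named genes was compared with its nearest neighbour, and a gap of over 0.71 of the group's range was marked (Dixon's criterion, which marks about 1 in 20 groups by chance). Of 58 groups 5 were marked, 4 of them for BGN replicate 5. In that library Id1 was far above its group, at 91.0 CPM with the next at 73.7 CPM, and Runx2 likewise, at 46.7 CPM with the next at 42.7 CPM. Bmpr1a was far below, at 462 CPM with the next at 479 CPM, and so was Hey1, at 133 CPM with the next at 164 CPM. The fifth was Hey1 in Control replicate 4, at 145 CPM with the next at 163 CPM. BGN replicate 5 also had the lowest glycolysis sum and Control replicate 4 the next lowest, at 5178 and 6263 CPM, and whether this bears on these values was not tested.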

How the results depend on the processing

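Of 559 log2 fold changes of 28 named genes under 20 alternatives, 536 kept their direction and stayed short of the threshold, and 23 turned in sign without passing it. Id2 turned with library totals alone (-0.0012), limma-voom (-0.019) and both replicate 5 libraries left out (-0.033). In the last 2 settings, Smad6 became 0.026 and 0.083 and Hey1 0.015 and 0.055, while Smad4 became -0.0027 by limma-voom and Twsg1 -0.010 without the 2 libraries. With single libraries left out, the range was -0.034 to 0.11 for Id1, -0.037 to 0.023 for Id2, -0.0061 to 0.22 for Id3, -0.098 to 0.026 for Smad6, -0.091 to 0.0068 for Bambi, -0.052 to 0.044 for Hey1 and -0.0011 to 0.038 for Smad4. Such turns were not confined to the replicate 5 libraries. Without Control replicate 2, Id1, Id2 and Smad6 turned to -0.020, -0.0088 and 0.0041. No filter on low counts gave 3 called genes in the whole table, none of them on the pathway list; the cause was not tested. With the replicate number as a block, 0 genes were called (smallest adjusted p = 0.238, edgeR). Same-numbered libraries deviated together with r from -0.020 to 0.20, and 1 of 5 BGN libraries was closest to the Control library of its own number. With 5 libraries per group these values cannot decide whether the numbers mark pairs. The labels state no pairing, so the numbers were not taken as pairs. Of 15 pairs of target genes, 2 fell under the threshold with group means removed, by a permutation that took no account of the means removed. Without the 2 farthest libraries 0 passed, and without both replicate 5 libraries 0 passed, both settings having fewer libraries. In the order of levels per kb, 2 of 10 genes changed place when the longest transcript was the length. Among the 10 genes, low counts limit Bmp4 most.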

Other observations

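Levels within the BMP ligand and antagonist families spanned a wide range. Over the 10 libraries, Bmp2 led the ligands at 5.39 ± 0.541 CPM per kb (SD), followed by Gdf5 at 3.71 ± 0.555 and Bmp7 at 2.47 ± 0.294, while Bmp5 and Bmp6 were at 0.0941 ± 0.0732 and 0.0129 ± 0.0116 CPM per kb and Bmp10 and Gdf2 had no count. Of the type I receptors, Bmpr1a stood at 73.1 and Bmpr1b at 0.0815 CPM per kb. Among antagonists and modulators, Twsg1 (49.2), Sostdc1 (35.6) and Fst (17.5 CPM per kb) were the most abundant, Nbl1 (5.15), Dand5 (1.97) and Fstl3 (1.76 CPM per kb) came next, and Nog, Chrd and Grem1, which encode noggin, chordin and gremlin, were at 0.0375, 0.0340 and 0.0242 CPM per kb and Cer1 and Sost had no count. These genes were picked for their levels after the values were seen.

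The 5 genes closest to Id3 across the 10 libraries, with group means removed, were Cct3 (r = 0.97), Pcca (0.97), Fbl (0.96), Aldh1a3 (0.96) and Hspbp1 (0.96), none of them among the 5 closest to Id1. Without both replicate 5 libraries, and with group means kept, r to these genes was 0.85, 0.78, 0.75, 0.91 and 0.74, so the measure differs as well as the libraries. This list was added after the values of Id1 were seen.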
